A study of Homo sapiens with 8 samples.

Results

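The RGS proteins (regulators of G protein signalling) are described here through 10 of their genes in MDA-MB-231 cells, a human breast cancer line that lacks the usual hormone receptors. The members are the rows of the count table whose Ensembl gene carries the symbol RGS2, RGS3, RGS4, RGS5, RGS10, RGS12, RGS14, RGS16, RGS19 or RGS20, so that 10 genes of the 60646 in the table were taken, and all 10 passed the filter on low counts. The RNA came from 8 samples, 4 of wild-type cells and 4 of cells labelled DOT1L knockout and DOT1L/+, in which a guide RNA had been aimed at exon 1 of DOT1L, the histone H3K79 methyltransferase. Both groups were grown in DMEM with 5% serum, with no further treatment, and harvested a day after plating. The labels give neither the number of edited alleles nor whether the knockout cells are 1 clone, and whether the samples of a group are separate cultures is not said, so the p-values may rest on technical spread alone. The question put to these genes was which of them differed in transcript level between the groups.

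A G protein-coupled receptor works by loading GTP onto the alpha subunit of a heterotrimeric G protein, which then parts from its beta and gamma subunits, and both parts act on effectors such as adenylyl cyclase and phospholipase C beta. RGS proteins share a domain that speeds GTP hydrolysis by the alpha subunit and so shortens the signal. The family is sorted by sequence into classes. The small proteins of the R4 class (here RGS2, RGS3, RGS4, RGS5 and RGS16) act on the Gi and Gq types, the R12 class (RGS10, RGS12 and RGS14) acts mainly on Gi, and the RZ class (RGS19 and RGS20) acts on Gi and on the related Gz. In breast cancer cells, receptors for thrombin, lysophosphatidic acid, sphingosine 1-phosphate and chemokines are well-known users of these G proteins.

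Depth ran from 40103408 to 50031412 counts per sample, and 1 count stood for 0.0198 to 0.025 CPM (counts-per-million, scaled for library size). DOT1L itself was lower in the knockout at 84.7 ± 5.91 CPM against 109 ± 8.53 (SD, 4 samples each), a log2 change of -0.37 (edgeR adjusted p = 2.8e-05), and since reads of an edited transcript are still counted this checks the labels only in part. The 5 markers of the line and of breast epithelium (VIM, CD44, KRT8, KRT18 and EGFR) summed to 4650 to 5320 CPM in wild-type and 5690 to 6240 CPM in the knockout, with 3 higher, 1 lower (EGFR) and CD44 not passed. Of 4 genes that are low in lines of this type, ESR1 and PGR were under 1 CPM in every sample and CDH1 had 1 and 41 counts per group, while ERBB2 stood at 86.9 and 73.8 CPM. Of the 2 tested, ERBB2 was lower (edgeR adjusted p = 0.000479) and ESR1 higher (0.0333). ESR1 reached the level of the count filter only in the knockout. Smooth muscle and pericytes are cells in which RGS4 and RGS5 are known to be abundant. Summed over 5 of their markers, wild-type samples held 4.02 to 9.56 CPM and knockout samples 8.86 to 15.8 CPM. Of the 4 tested markers 3 rose, and 2 of these, CNN1 and DES, reached the level of the count filter only in the knockout. PDGFRB, the most abundant of the 5, did not pass (edgeR adjusted p = 0.215), and MYH11 had 6 and 3 counts per group. Summed over 3 neuronal markers the values were 2.39 to 3.13 and 6.53 to 8.01 CPM, 2 of the 2 tested rose, and SNAP25 had 3 and 10 counts. Over 5 immune markers they were 0.444 to 0.731 and 0.773 to 1.29 CPM, with 1 of 2 tested higher and CD3E at 0 and 1 counts. The 3 endothelial markers summed to 0.972 to 2.03 and 1.63 to 2.27 CPM. Of the 3 tested, 1 was higher (VWF), and it reached the level of the count filter only in the knockout. The part of these marker genes in the results below was not tested.

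Of the 10 genes, 5 rose in the knockout (RGS2, RGS4, RGS5, RGS10 and RGS14), 2 fell (RGS3 and RGS19) and 3 did not pass the test (RGS12, RGS16 and RGS20). Over all 19877 tested genes 47.6% passed, 23.9% being higher and 23.6% lower in the knockout, so a passing gene was common in this comparison. Higher calls made up 50.3% of all calls here, 61.2% when scaled by library totals alone and 61.9% with upper-quartile scaling. The median log2 change was 0.38 over the 10 genes and 0.0025 over all tested genes. Values of the groups did not overlap for 7 of the 10 genes, against 43.4% of all tested genes. With a stricter filter, at a mean log2 CPM of 1, 56.3% of all tested genes and 7 of 9 RGS genes passed. The largest of the 10 changes was that of RGS4, and the risers held the most abundant member per length, RGS10, as well as the low-level RGS5.

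**Figure D1:**
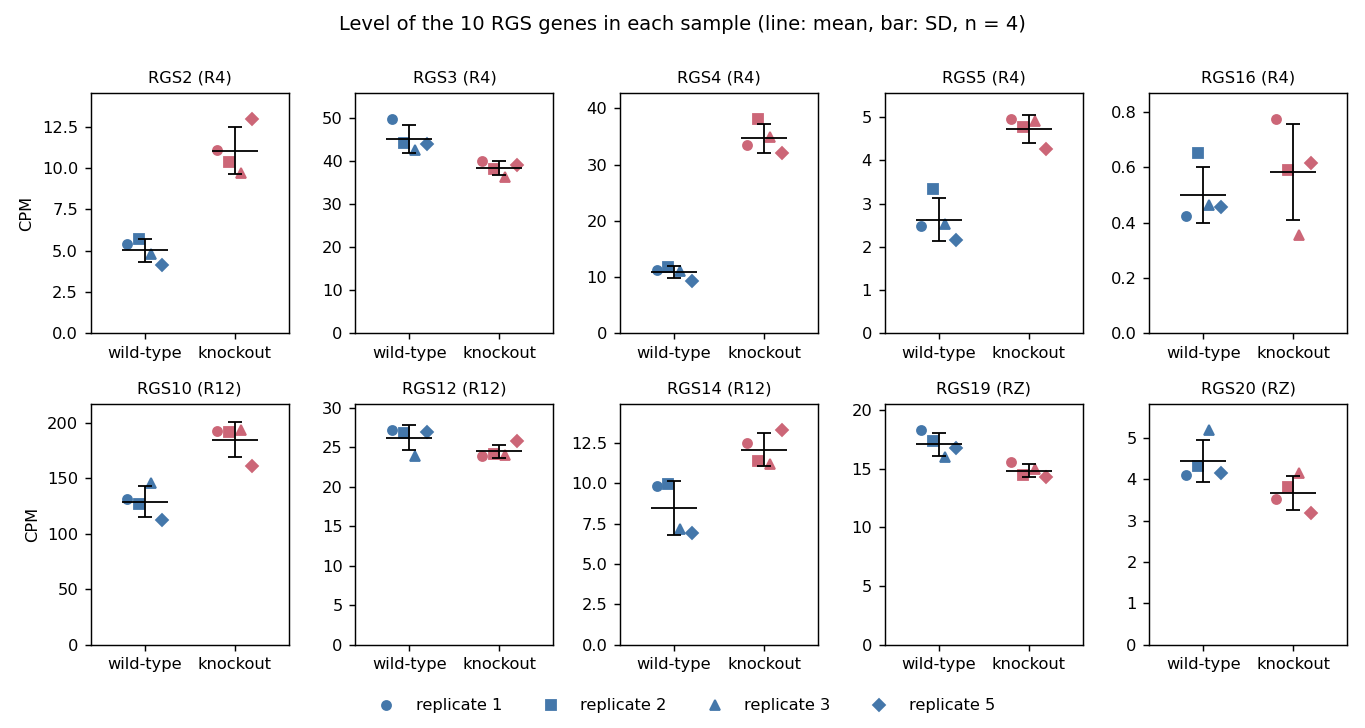
CPM (vertical axes, each starting at 0) of the 10 RGS genes in the 4 wild-type (blue) and 4 knockout (red) samples, with the class of each gene in brackets; symbols mark the replicate number, the horizontal line is the mean and the bar the SD. Groups are apart for RGS2, RGS3, RGS4, RGS5, RGS10, RGS14 and RGS19 and overlap for RGS12, RGS16 and RGS20.

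RGS4, a strong brake on Gi and Gq signals that is best known from brain, showed the clearest rise. RGS4 (ENSG00000117152, chromosome 1, 163068775 to 163076802, plus strand, hg38 and GENCODE 29 as for all genes here) was measured at 11.3, 11.8, 11.2 and 9.29 CPM in wild-type replicates 1, 2, 3 and 5. In knockout replicates 1, 2, 3 and 5 it stood at 33.4, 38.2, 34.9 and 32.1 CPM. Every knockout sample was far above every wild-type sample, and the change was 3.19-fold (log2 change 1.67, SE 0.075, adjusted p = 1.64e-13).

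RGS2 differs from its relatives in its preference for the Gq type. RGS2 (ENSG00000116741, chromosome 1, 192809039 to 192812283, plus strand) had 5.43, 5.74, 4.82 and 4.14 CPM in wild-type replicates 1, 2, 3 and 5. The knockout replicates 1, 2, 3 and 5 had 11.1, 10.4, 9.72 and 12.99 CPM. The lowest knockout sample was thus well above the highest wild-type sample, and the rise was 2.20-fold (log2 change 1.14, SE 0.11, adjusted p = 2.26e-08).

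RGS5, known as a marker of vascular pericytes, also rose but from a low level. RGS5 (ENSG00000143248, chromosome 1, 163111121 to 163321791, minus strand) stood at 2.48, 3.33, 2.54 and 2.16 CPM in wild-type replicates 1, 2, 3 and 5 and at 4.96, 4.76, 4.91 and 4.26 CPM in the knockout replicates in the same order. The groups did not overlap, and the change was 1.80-fold (log2 change 0.85, SE 0.13, adjusted p = 1.18e-05). A gene of antisense type, ENSG00000232995, which GENCODE 29 also calls RGS5, lies on the same strand and shares 534 exon bases with it. That gene rose as well, by 0.57 on the log2 scale, from 3.55 ± 0.267 to 5.26 ± 0.359 CPM (edgeR adjusted p = 0.00013), and how reads in the shared bases were assigned is not given in the sources used here. NUF2 overlaps RGS5 on the opposite strand, with 0 shared exon bases, and had 30302 counts over all samples. RGS5 had 457 and 919 counts per group. The strand setting of the counting is not given, and a part of NUF2 reads in the RGS5 values was not tested. Summed markers of smooth muscle and pericytes ran higher in the knockout, as RGS4 and RGS5 did, but with overlapping ranges (4.02 to 9.56 against 8.86 to 15.8 CPM). Summed neuronal, immune and endothelial markers also ran higher, the endothelial ones with overlap. The part of any of these markers in the rise was not tested.

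RGS3, a gene with many alternative transcripts that encode long and short proteins, went the other way. RGS3 (ENSG00000138835, chromosome 9, 113444731 to 113597743, plus strand) stood at 49.9, 44.3, 42.7 and 44.1 CPM in wild-type replicates 1, 2, 3 and 5 and at 40.01, 38.2, 36.5 and 39.2 CPM in the knockout replicates. All knockout values lay below all wild-type values, yet the fall was small, with a log2 change of -0.23 (SE 0.056, adjusted p = 0.00152). By counts it was the most abundant gene of its class in both groups.

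RGS16, often induced by receptor signals, was close to the limit of measurement. RGS16 (ENSG00000143333, chromosome 1, 182598623 to 182604408, minus strand) had 18, 26, 22 and 21 counts in wild-type replicates 1, 2, 3 and 5 and 38, 28, 17 and 31 counts in the knockout replicates. The groups overlapped, and the log2 change of 0.23 had a 95% interval from -0.32 to 0.79 (adjusted p = 0.504), so that a difference of moderate size in either direction was not detectable at this depth. It ranged from 0.07 without knockout replicate 1 to 0.41 without knockout replicate 3.

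Among the R12 genes, RGS10 stood out by its level. RGS10, a short protein of little more than the RGS domain that is prominent in immune cells, rose in the knockout. RGS10 (ENSG00000148908, chromosome 10, 119499828 to 119542708, minus strand) was measured at 131.0, 126.5, 145.5 and 111.9 CPM in wild-type replicates 1, 2, 3 and 5. The values in knockout replicates 1, 2, 3 and 5 were 192.8, 191.4, 193.4 and 160.7 CPM. The groups did not overlap, replicate 5 was the lowest of its group in both, and the change was 1.43-fold (log2 change 0.52, SE 0.078, adjusted p = 8.31e-05).

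RGS14, which combines the RGS domain with Ras-binding domains and a GoLoco motif that holds Gi in its GDP form, rose by a like amount. RGS14 (ENSG00000169220, chromosome 5, 177357837 to 177372601, plus strand) had 9.84, 9.97, 7.14 and 6.91 CPM in wild-type replicates 1, 2, 3 and 5 and 12.5, 11.4, 11.2 and 13.3 CPM in the knockout replicates. The groups did not overlap, although wild-type replicates 1 and 2 were well above 3 and 5 (log2 change 0.52, SE 0.11, adjusted p = 0.00118). Of the 43 other tested genes within 1 Mb of RGS14, 32 rose and 1 fell, and relative to the median of its nearest neighbours, 20 tested genes on each side, the change of RGS14 was 0.21 (adjusted p = 0.149).

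RGS12, the large scaffold of the class with a PDZ domain, did not pass. RGS12 (ENSG00000159788, chromosome 4, 3293028 to 3439913, plus strand) stood at 27.2, 26.9, 23.9 and 27.0 CPM in wild-type replicates 1, 2, 3 and 5 and at 23.9, 24.2, 24.0 and 25.8 CPM in the knockout replicates. Wild-type replicate 3 was as low as the knockout samples, and the log2 change was -0.10 (95% interval -0.22 to 0.023, adjusted p = 0.176). Without that sample it was -0.14 and passed (adjusted p = 0.0414).

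RGS19, also called GAIP, fell slightly. RGS19 (ENSG00000171700, chromosome 20, 64073181 to 64079988, minus strand) had 18.3, 17.4, 16.0 and 16.7 CPM in wild-type replicates 1, 2, 3 and 5 and 15.5, 14.4, 15.0 and 14.3 CPM in the knockout replicates. The ranges were close but apart (log2 change -0.21, SE 0.066, adjusted p = 0.0139). This call was lost under upper-quartile scaling (edgeR adjusted p = 0.0874), and likewise with library totals alone (0.0949), relative to neighbours (log2 change -0.13, adjusted p = 0.11) and without wild-type replicate 1 (0.0537).

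RefSeq start windows (GRCh38.p14, 250 bases before to 50 after an annotated start) were present for 9 of the 10 genes, 23 windows in all, because several genes have more than 1 start. They were searched on both strands for CACGTG, the E-box bound by MYC with MAX and by the Mondo proteins with MLX, which the series title names, and for 3 common promoter elements. The TATA box was searched as TATAAA. The GC box was searched as GGGCGG. The CCAAT box was searched by the letters of its name. CACGTG occurred in 2 of the 23 windows, 1 of RGS3 and 1 of RGS19, and in 7.26% of all 35116 windows of that length, a share close to that among the 23. A link between a match and the direction of change was not tested. TATAAA occurred in 2 windows (11.5% of all), GGGCGG in 11 (45% of all) and CCAAT in 6 (34.6% of all), and no match overlapped one of another motif. The windows of the 3 risers RGS4, RGS2 and RGS10 and the 2 windows with an E-box are shown as examples, and capitals mark the matches. Which start these cells used is not known from counts per gene, and a match is a description of the letters only. The RGS4 window (chr1:163069111-163069410, plus strand) holds TATAAA 30 bases before the start, in a stretch with 47% G and C, whereas those of RGS2 (chr1:192808789-192809088, plus strand) and RGS10 (chr10:119542670-119542969, minus strand) have 69.7% and 77.3% G and C, with 32 and 33 CpG pairs against 8. The contrast holds for these windows and not for every start, since RGS2 has 1 window, RGS4 has 4 (40.7% to 50.3% G and C), and the other RGS10 window has 48.7% G and C and 5 CpG pairs. The E-box windows lie at chr9:113536361-113536660 (plus strand) for RGS3 and chr20:64079469-64079768 (minus strand) for RGS19. For RGS3 it is 1 of 5 windows and for RGS19 1 of 2.
RGS4: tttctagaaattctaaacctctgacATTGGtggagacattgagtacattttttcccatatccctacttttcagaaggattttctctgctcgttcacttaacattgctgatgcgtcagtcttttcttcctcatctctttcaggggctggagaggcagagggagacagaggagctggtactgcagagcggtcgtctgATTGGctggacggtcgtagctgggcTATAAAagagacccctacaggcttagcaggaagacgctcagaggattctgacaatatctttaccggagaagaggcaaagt
RGS2: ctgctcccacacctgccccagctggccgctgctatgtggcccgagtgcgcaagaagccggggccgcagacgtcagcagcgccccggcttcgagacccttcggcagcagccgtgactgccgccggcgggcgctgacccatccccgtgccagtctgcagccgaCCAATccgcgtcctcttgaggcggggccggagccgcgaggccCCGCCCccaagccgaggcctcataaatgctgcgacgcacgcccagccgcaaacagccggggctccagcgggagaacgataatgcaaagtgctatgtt
RGS10: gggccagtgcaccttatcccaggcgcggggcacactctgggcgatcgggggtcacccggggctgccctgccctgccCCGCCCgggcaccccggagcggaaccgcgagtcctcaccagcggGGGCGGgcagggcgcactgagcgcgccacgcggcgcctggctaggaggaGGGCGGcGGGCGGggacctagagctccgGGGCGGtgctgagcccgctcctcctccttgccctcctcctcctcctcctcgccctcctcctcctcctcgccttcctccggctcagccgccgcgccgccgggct
RGS3: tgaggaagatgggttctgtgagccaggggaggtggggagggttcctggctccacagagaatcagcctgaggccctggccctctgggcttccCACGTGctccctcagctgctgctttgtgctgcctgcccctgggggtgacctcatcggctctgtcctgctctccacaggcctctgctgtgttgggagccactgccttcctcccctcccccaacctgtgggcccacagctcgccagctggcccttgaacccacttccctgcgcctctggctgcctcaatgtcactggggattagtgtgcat
RGS19: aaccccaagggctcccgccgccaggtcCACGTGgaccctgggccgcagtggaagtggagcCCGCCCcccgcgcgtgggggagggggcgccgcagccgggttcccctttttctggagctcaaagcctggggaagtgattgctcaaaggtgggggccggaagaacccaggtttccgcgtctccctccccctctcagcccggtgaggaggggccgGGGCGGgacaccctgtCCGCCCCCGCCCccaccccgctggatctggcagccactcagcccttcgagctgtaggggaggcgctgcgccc

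RGS20, known as RGSZ1 for its action on Gz, was lower on average but did not pass. RGS20 (ENSG00000147509, chromosome 8, 53851808 to 53959303, plus strand) had 4.11, 4.33, 5.20 and 4.16 CPM in wild-type replicates 1, 2, 3 and 5. The knockout replicates had 3.53, 3.81, 4.16 and 3.19 CPM, so that the ranges overlapped only at the highest knockout and the lowest wild-type samples (log2 change -0.28, 95% interval -0.52 to -0.034, adjusted p = 0.0565). Replicate 3 was the highest of both groups, and with the replicate number as a block the gene passed (adjusted p = 0.029), which made 8 of the 10 genes called, 5 higher and 3 lower. Over all tested genes the block called 52.7%, against 47.6% in the reported fit. RGS20 also passed relative to its neighbours (log2 change -0.30, adjusted p = 0.0429).

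RGS4, RGS5, RGS16 and RGS2 all lie on chromosome 1, RGS4 next to RGS5, and 3 of them rose while RGS16 did not pass. Of the 11 other tested genes within 1 Mb of RGS4 and RGS5, 6 rose and 0 fell, with a median log2 change of 0.23. These 11 include ENSG00000232995. The largest log2 change among them was 3.90, and against them RGS4 ranked 2 and RGS5 ranked 3. Of the 9 around RGS2, 1 rose and 4 fell, with a median of -0.079, and RGS2 had the largest increase of its window. Relative to the nearest 20 tested genes on each side, the log2 changes of RGS4, RGS2, RGS5 and RGS10 were 1.56, 1.11, 0.75 and 0.40, and all of these passed (adjusted p = 5.62e-13, 5.44e-08, 6.2e-05 and 0.000917). The neighbour median entered as a fixed offset, so these p-values carry no spread among the neighbours. RGS4 and RGS5 counted among each other's neighbours, and ENSG00000232995 among those of both. RGS3 stood at -0.25 on the same scale (adjusted p = 0.00101).

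**Figure D2:**
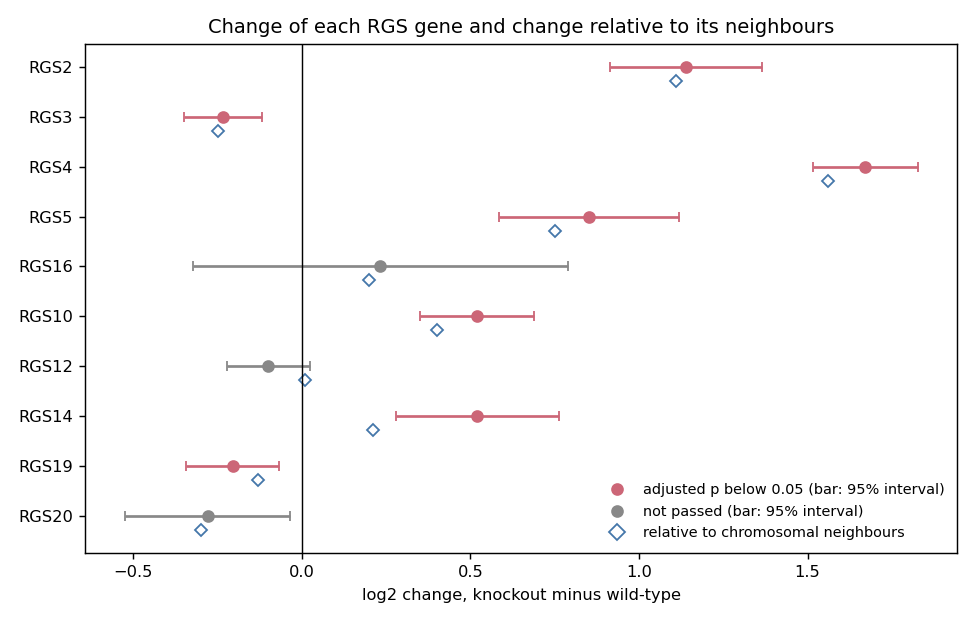
Log2 change (knockout minus wild-type, horizontal axis) of each RGS gene with its 95% interval, red where the adjusted p was below 0.05 and grey where not; open diamonds give the change relative to the median of up to 40 chromosomal neighbours. RGS4, RGS2, RGS5 and RGS10 keep most of their change against the neighbours, while RGS14 moves from 0.52 to 0.21.

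Levels of different genes were compared per length, as CPM per kilobase of merged exons (RPKM). The order in wild-type cells was RGS10 at 102.8 ± 11.1 RPKM, RGS19 at 8.42 ± 0.486, RGS3 at 3.28 ± 0.233, RGS2 at 2.40 ± 0.336, RGS4 at 2.25 ± 0.228, RGS14 at 2.23 ± 0.439, RGS12 at 1.91 ± 0.115, RGS20 at 1.39 ± 0.159, RGS5 at 0.385 ± 0.0731 and RGS16 at 0.206 ± 0.0423 RPKM (SD, n = 4). RGS2, RGS4, RGS14 and RGS12 had overlapping ranges in this order, and the other steps were apart. In the knockout RGS4 moved from the fifth to the third place at 7.16 ± 0.541 RPKM, level with RGS19 at 7.30 ± 0.276, whose range it overlapped. RGS2 followed at 5.27 ± 0.674, then RGS14 at 3.19 ± 0.262 and RGS3 at 2.79 ± 0.111 RPKM.

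RGS10 supplied most of the summed RPKM of the 10 genes in either group, 82.0% ± 1.67 in wild-type and 83.2% ± 1.46 in the knockout, ranges that overlapped. The share of RGS4 went from 1.80% ± 0.121 to 4.05% ± 0.252, and that of RGS19 from 6.77% ± 0.749 to 4.14% ± 0.240. The 5 R4 genes summed to 9.08, 9.14, 8.26 and 7.59 RPKM in wild-type replicates 1, 2, 3 and 5 and to 16.2, 16.6, 15.4 and 16.6 RPKM in the knockout replicates. Both RZ genes together came to 9.82 ± 0.372 and 8.45 ± 0.330 RPKM. These sums are descriptions, and they depend on merged exon lengths from GENCODE 29, which are long for RGS3 (13793 bases) and RGS12 (13755 bases) and so lower the values of those genes.

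**Figure D3:**
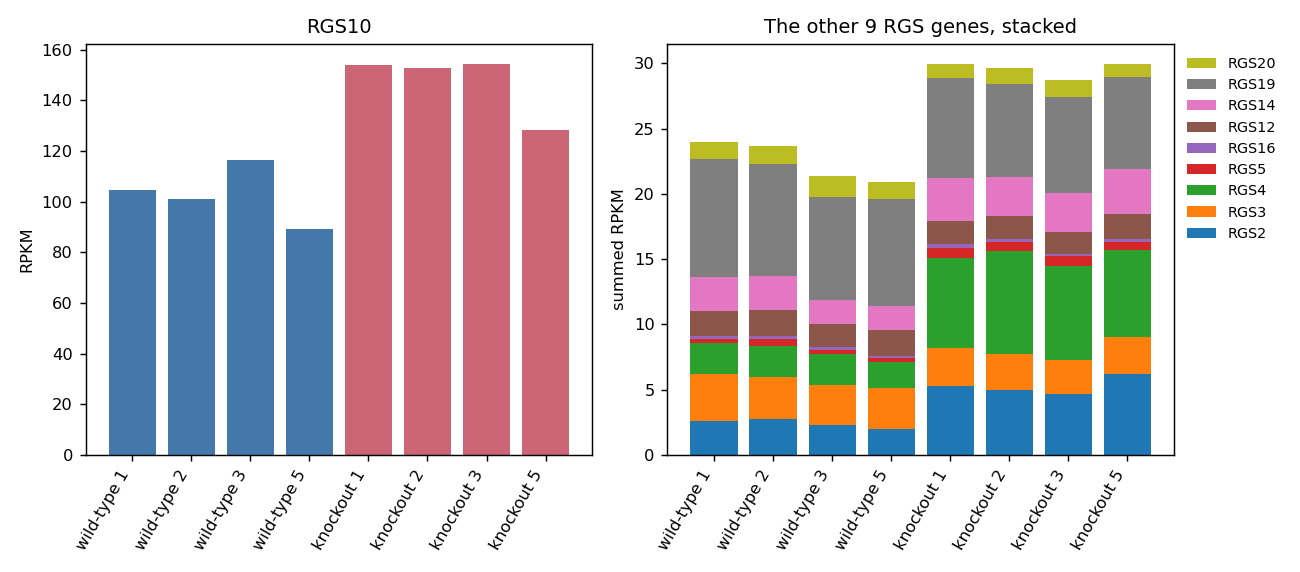
RPKM of RGS10 (left, vertical axis from 0) and of the other 9 RGS genes stacked (right) in each of the 8 samples. The left panel runs from 89.4 to 154.5 RPKM, and in the right panel the green (RGS4) and blue (RGS2) parts are taller in all 4 knockout samples than in any wild-type sample.

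Most of the other genes of the family had few counts, while RGS17 and RGS9 stood at 1.48 and 1.27 RPKM in wild-type, near RGS20 and above RGS5. Of 13 further genes (11 RGS genes and 2 that encode anchors of RGS proteins), 5 were tested, of which 3 rose, 0 fell and 2 did not pass. Without RGS7BP, which reached the level of the count filter only in the knockout, 2 of 4 rose. RGS17, the third gene of the RZ class, was at 11.7 ± 1.45 CPM in wild-type and rose to 14.95 ± 1.21 CPM in the knockout, by 0.36 on the log2 scale (adjusted p = 0.00171), whereas RGS19 fell. RGS7, of the R7 class that pairs with the beta subunit GNB5, rose by 0.91 on the log2 scale, from 1.01 ± 0.201 to 1.90 ± 0.114 CPM (adjusted p = 0.000139). RGS7BP, which anchors R7 proteins at the membrane, had 0 counts in every wild-type library and 12, 22, 13 and 11 counts in knockout replicates 1, 2, 3 and 5, at least 4.36-fold higher against a floor of 3 counts per library. Since it was tested only because of its knockout counts, no p is given for it. RGS9, also of the R7 class, had 8.86 ± 1.77 and 8.51 ± 1.16 CPM with a log2 change of -0.054 (adjusted p = 0.776) and the anchor RGS9BP at 0.752 ± 0.230 and 1.06 ± 0.194 CPM (adjusted p = 0.0775). Too low to be tested were RGS22 with 25 and 59 counts over the wild-type and knockout groups, RGS18 with 2 and 19, RGS6 with 5 and 17, RGS8 with 0 and 4, RGS1 with 0 and 2 and RGS11 with 0 and 1, while RGS13 and RGS21 had 0 counts throughout.

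The G protein subunits on which RGS proteins act were mixed in direction. Of 16 alpha subunit genes 12 were tested, of which 2 rose, 4 fell and 6 did not pass, but 4 rose and 2 fell with upper-quartile scaling, so the list had no stable direction. GNAZ, the Gz subunit on which RGS20 and RGS17 act, rose by 1.14 on the log2 scale, from 1.28 ± 0.219 to 2.80 ± 0.393 CPM (adjusted p = 4.82e-06). GNAI1, a Gi subunit, rose from 29.3 ± 1.20 to 38.3 ± 1.15 CPM (adjusted p = 2.43e-06), and GNA11, of the Gq type, fell from 153.9 ± 4.24 to 137 ± 1.68 CPM (adjusted p = 0.00267). Its log2 change of -0.17 lay beside a median of -0.16 among its neighbours. Of 15 beta and gamma genes 10 were tested, with 3 higher, 3 lower and 4 not passed. GNB5, the partner of the R7 class, rose by 0.41 on the log2 scale, from 37.8 ± 2.42 to 50.2 ± 1.59 CPM (adjusted p = 1.56e-06), GNG11 rose from 30.3 ± 1.97 to 45.1 ± 3.09 CPM and GNG7 fell from 1.81 ± 0.107 to 0.581 ± 0.156 CPM (adjusted p = 8.06e-08 and 4.9e-07).

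Upstream of the G proteins lie the receptors. Of 43 receptor genes in the list 36 were tested, with 19 higher, 4 lower and 13 not passed and a median log2 change of 0.42, and with upper-quartile scaling 20 were higher and 3 lower. Over all tested genes 23.9% were higher and 23.6% lower, and no test of the list was made. Of the 19, 5 (ACKR3, FPR1, FPR2, OPRL1 and PTGER3) reached the level of the count filter in all samples of the knockout only, so the filter favoured their calls. ADORA2A did so too and did not pass. Among the 29 receptors that reached that level in both groups 14 were higher and 4 lower. The median of 0.42 was taken over all 36 and so includes the 5. S1PR1, a receptor for sphingosine 1-phosphate that signals through Gi, rose by 1.61 on the log2 scale, from 3.09 ± 0.478 to 9.40 ± 0.454 CPM (adjusted p = 7.44e-11). S1PR3, which uses Gi and Gq, rose from 30.2 ± 1.03 to 48.8 ± 2.63 CPM (adjusted p = 7.45e-10). FPR2, a formyl peptide receptor, had 3, 3, 3 and 13 counts in wild-type replicates 1, 2, 3 and 5 and 163, 190, 181 and 205 counts in the knockout replicates. Both arrestins, which silence active receptors, changed in opposite directions: ARRB1 fell from 37.8 ± 6.17 to 21.1 ± 0.805 CPM and ARRB2 rose from 16.2 ± 0.615 to 19.6 ± 1.64 CPM (adjusted p = 2.17e-05 and 0.00268). The log2 change of ARRB1 was -0.84 and the median of its neighbours -0.37.

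Downstream effectors also split. Of 14 phospholipase C beta and adenylyl cyclase genes 9 were tested, with 3 higher, 5 lower and 1 not passed. Of the 3, ADCY4 and ADCY5 reached the level of the count filter in all samples of the knockout only, which leaves 1 higher and 5 lower among the 7 that reached it in both groups. ADCY5, a cyclase that Gi inhibits, had 8, 7, 12 and 12 counts in wild-type replicates 1, 2, 3 and 5 and 101, 98, 87 and 80 in the knockout replicates, while ADCY3 fell from 105 ± 5.35 to 83.6 ± 3.41 CPM (adjusted p = 7.23e-06). PLCB3 fell by 0.36 on the log2 scale from 151 ± 5.54 CPM, and its neighbours had a median of -0.40. Of 14 genes for other proteins with an RGS-homology domain all were tested, with 6 higher, 4 lower and 4 not passed, but 4 higher and 6 lower relative to neighbours. They included the receptor kinases GRK5, which rose from 22.2 ± 1.02 to 32.3 ± 1.21 CPM, and GRK2, which fell from 95.1 ± 5.58 to 62.8 ± 2.002 CPM (adjusted p = 6.45e-08 and 1.98e-09). GRK2 had a log2 change of -0.60 in a neighbourhood with a median of -0.46. The sorting nexin SNX25 fell from 29.3 ± 0.953 to 11.6 ± 0.845 CPM, a log2 change of -1.34 where the neighbours had a median of -0.81.

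Of 8 genes for chaperones and nucleotide modulators of alpha subunits 7 were tested, with 2 higher, 2 lower and 3 not passed. The chaperone RIC8A fell from 259 ± 18.3 to 195 ± 10.8 CPM (log2 change -0.41, neighbours -0.40), its relative RIC8B rose from 40.1 ± 0.956 to 48.9 ± 3.62 CPM, and GPSM2, a GoLoco protein as RGS14 is, fell from 139 ± 5.88 to 114.5 ± 3.96 CPM (adjusted p = 2.16e-06, 0.000164 and 3.35e-05). Over all 125 genes of these lists that are not among the 10, 95 were tested, 39 rose, 23 fell and 33 did not pass. Their 65.3% of calls and the 70% among the 10 RGS genes stand beside the 47.6% of all tested genes, and no test of the lists was made. The 39 and the 65.3% include RGS7BP, ADCY4, ADCY5 and 5 receptors that reached the level of the count filter only in the knockout, so the filter favoured their calls. All 10 RGS genes reached it in both groups, and the 47.6% was not split in this way. The 47.6% also depends on level. With the filter at a mean log2 CPM of 1, 56.3% of all tested genes passed, beside 7 of 9 RGS genes and 51 of 77 genes of the lists.

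**Figure D4:**
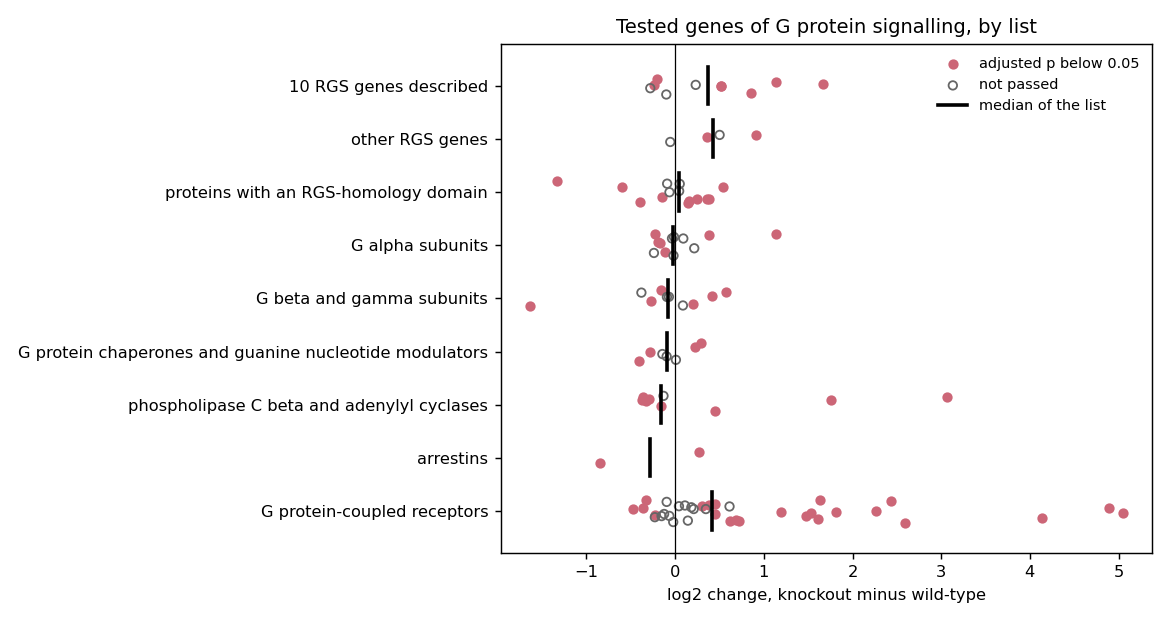
Log2 change (knockout minus wild-type, horizontal axis) of each tested gene of the G protein signalling lists, filled where the adjusted p was below 0.05 and open where not; the vertical scatter within a list has no meaning and the black bar is the median of the points shown. RGS7BP, with 0 counts in every wild-type library, is left out. The points and medians include ACKR3, FPR1, FPR2, OPRL1, PTGER3, ADCY4 and ADCY5, which reached the level of the count filter only in the knockout. The G protein subunits lie on both sides of 0. The receptors reach a log2 change of 5.05 in ACKR3, whose wild-type samples were all below that level.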

How the data were processed

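Total RNA depleted of ribosomal RNA was sequenced as stranded libraries, per the labels' protocols. The authors deposited whole-number counts per Ensembl gene and log2-like variance-stabilized values, and hg38, featureCounts, Subread 1.6.2, STAR 2.6.0c and DESeq2 1.23.10 are named, without their roles, per the submitters' processing notes. The annotation release, strand setting and handling of multiply mapped reads are not given in the sources used here. Symbols matched 60333 of 60646 identifiers, and GENCODE 29 on the same build gave positions and lengths for 58459.

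Groups and columns were matched by sample title. Counts were fitted with edgeR 4.0.16 in R 4.3.3 (filterByExpr, TMM scaling, robust quasi-likelihood test, group as the single term), with Benjamini-Hochberg adjustment over 19877 genes and a threshold of 0.05; every adjusted p comes from this test unless another is named. CPM use TMM factors. A gene reached the filter's level in a group when all 4 of its samples had at least 0.213 CPM by library total, or 10 counts in a sample of median depth. Alternatives were 2 other scalings, 2 other filters, DESeq2 1.42.0, a replicate block, a neighbour offset, limma 3.58.1 on the deposited log2 values, and leaving out each sample. Every p-value given relative to neighbours takes their median as fixed.

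No replicates were alike within sampling noise (chi-square per degree of freedom 3.68 to 20.5). Deviations from the group mean correlated at 0.369, 0.148, 0.146 and 0.373 over 13344 genes between same-numbered samples of the groups. Between samples of other numbers they correlated at -0.302 to 0.0587, so the numbers were taken as paired. The reported fit has no replicate term, and the pairing enters only the replicate block alternative, in which RGS20 passed as well.

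All 10 members are named, with any other RGS gene that had counts and, per list, up to 3 passing genes with the smallest adjusted p. Members and lists were chosen with earlier results of these data known.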

Additional observations from a re-analysis of the deposited data

Results flagged for a closer look

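In each group of 4, a sample was set apart when its gap to the nearest other sample as a share of the group's range exceeded Dixon's 95% critical value, a limit that chance passes in about 1 group in 20. Of 20 groups (10 RGS genes in 2 groups of samples), 3 had such a sample. RGS10 in knockout replicate 5 was at 160.7 CPM, below the other three knockout samples at 191.4 to 193.4 CPM, and without that sample the log2 change of RGS10 was 0.58 (adjusted p = 4.08e-07). RGS12 in wild-type replicate 3 was at 23.9 CPM, below the other wild-type samples at 26.9 to 27.2 CPM. RGS12 in knockout replicate 5 was at 25.8 CPM, above the other knockout samples at 23.9 to 24.2 CPM, and without it the log2 change was -0.12 (adjusted p = 0.116).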

How the results depend on the processing

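RGS2, RGS3, RGS4, RGS5 and RGS10 kept their direction and their call under all 16 alternatives, with log2 changes from 0.90 to 1.21, -0.26 to -0.17, 1.5 to 1.74, 0.57 to 0.98 and 0.40 to 0.59. The number of RGS genes lower in the knockout was 1 with upper-quartile scaling and 1 with library totals alone, against 2, and ran from 1 to 3 when samples were left out in turn, the 1 being without wild-type replicate 1. The call of RGS14 was lost relative to neighbours, and that of RGS19 under 4 alternatives given with its values. RGS20 passed under 4 alternatives: the replicate block, relative to neighbours, without wild-type replicate 5 (adjusted p = 0.0499) and without knockout replicate 3 (0.038). RGS12 changed sign relative to neighbours, at 0.01 (adjusted p = 0.943). The cause of these shifts was not tested. With the samples paired by a replicate block, 8 RGS genes passed, and no call other than that of RGS20 changed among the 10. That block called 52.7% of all tested genes, against 47.6% in the reported fit. The filter at a mean log2 CPM of 1 gave no value for RGS16, whose 87 and 114 counts per group limit what can be seen. Counts over all genes and over the pooled G protein lists stayed within 1.5 times those reported. In single lists, 5 other RGS genes rose with no filter or without wild-type replicate 2 and 1 of 2 tested with the stricter filter (3 reported), 4 alpha subunits rose and 2 fell relative to neighbours and with upper-quartile scaling (2 and 4), 2 fell with library totals alone, 1 cyclase or phospholipase gene rose with the stricter filter (3) and 3 fell relative to neighbours (5), 1 chaperone or modulator rose (2) and 2 receptors fell (4) relative to neighbours.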
